A study of Mus musculus with 8 samples.

Results

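Expression of 8 enzymes of cholesterol synthesis was followed in mouse embryonic stem (ES) cells whose genomes came from the father only, from the mother only, or from both parents. The enzymes were Hmgcs1, Idi1, Fdps, Fdft1, Sqle, Msmo1 (earlier named Sc4mol), Hsd17b7 and Ebp. They were found by gene symbol in the probe annotation of the array. Of the 8 enzymes, 7 had a named probe that passed the detection filter, with 8 probes in all, among 8221 genes measured. Fdft1, the squalene synthase, had no named probe and was not analysed here.

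RNA from 8 cultures was measured on single-colour Illumina BeadChips, an array on which each probe gives a brightness for its transcript. The groups were androgenetic ES cells, with paternal genomes only (3 arrays, passages 6, 7 and 8), parthenogenetic ES cells, with maternal genomes only (2 arrays, passages 6 and 7), and ES cells from fertilized embryos (3 arrays, passages 6, 7 and 8). All were of the strain B6129F1. By the labels, the androgenetic and the fertilized material held both sexes and both sex chromosomes, whereas the parthenogenetic material was female. It is not stated whether passages of a group came from independent lines, and the p-values therefore cover the spread between these arrays only, which may be technical.

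Cholesterol is built from acetyl-CoA in a chain of reactions. An early stretch makes isoprenoid units, a middle stretch joins them into squalene, and a late stretch closes squalene to lanosterol and trims that sterol to cholesterol. The genes of the chain are known targets of the SREBP transcription factors, chiefly SREBP2. When sterols are low, the escort protein Scap carries SREBP to the Golgi, where it is cut and freed. When sterols are high, the Insig proteins hold Scap back. NF-Y, which binds CCAAT boxes, and Sp1, which binds GC boxes, are known to act beside SREBP at many of these promoters.

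The promoters are shown because motifs of SREBP, NF-Y and Sp1 were searched for in this part of the genes. RefSeq promoters (build GRCm38.p6, 250 bases before to 50 after the gene's start) were matched for 5 of the 8 enzymes. Those of Hmgcs1, Msmo1, Hsd17b7 and Ebp, the genes with the widest differences between groups, are printed 5′ to 3′ on the gene's strand. Capitals mark a CCAAT box on either strand (read as ATTGG when on the other strand) and, in Hmgcs1 only among these sequences, a match to the sterol response element TCACNCCAC.
Hmgcs1 (chr13:119690101-119690400, plus strand): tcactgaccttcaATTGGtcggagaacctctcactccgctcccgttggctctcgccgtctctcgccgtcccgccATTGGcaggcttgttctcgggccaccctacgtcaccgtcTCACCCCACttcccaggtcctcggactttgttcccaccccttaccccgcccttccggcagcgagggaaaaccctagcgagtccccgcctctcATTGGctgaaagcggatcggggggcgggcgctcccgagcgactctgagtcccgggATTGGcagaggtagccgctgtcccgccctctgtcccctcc
Msmo1 (chr8:64733529-64733828, minus strand): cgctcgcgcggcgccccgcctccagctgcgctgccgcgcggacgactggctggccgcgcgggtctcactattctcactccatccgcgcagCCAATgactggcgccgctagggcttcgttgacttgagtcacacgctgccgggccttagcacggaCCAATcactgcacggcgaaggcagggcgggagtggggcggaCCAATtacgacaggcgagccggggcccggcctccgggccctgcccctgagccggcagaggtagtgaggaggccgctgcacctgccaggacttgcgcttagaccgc
Hsd17b7 (chr1:169969156-169969455, minus strand): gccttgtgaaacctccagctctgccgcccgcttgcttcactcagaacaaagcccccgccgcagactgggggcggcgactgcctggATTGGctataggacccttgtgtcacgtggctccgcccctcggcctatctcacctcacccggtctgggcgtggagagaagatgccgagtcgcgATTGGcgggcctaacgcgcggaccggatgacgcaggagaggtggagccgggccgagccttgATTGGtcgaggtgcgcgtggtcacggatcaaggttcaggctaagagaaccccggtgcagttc
Ebp (chrX:8193463-8193762, minus strand): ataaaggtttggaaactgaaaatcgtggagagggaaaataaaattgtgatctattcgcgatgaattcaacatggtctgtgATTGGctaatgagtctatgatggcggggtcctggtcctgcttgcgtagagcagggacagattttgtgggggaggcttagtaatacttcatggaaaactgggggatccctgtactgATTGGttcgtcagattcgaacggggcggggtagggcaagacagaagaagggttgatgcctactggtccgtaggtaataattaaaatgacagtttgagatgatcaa
The CCAAT letters occurred in all 5 matched promoters, 4 times in Hmgcs1, 3 times each in Msmo1 and Hsd17b7, and 2 times each in Ebp and Idi1. Across all 32851 promoters of the table, 37.4% held CCAAT at least once, 11.7% at least 2 times and 3.37% at least 3 times. The GC box letters GGGCGG were also present in all 5, against 35.7% of all promoters, and did not overlap the CCAAT matches. The sterol response element letters occurred in 1 of the 5 only, beginning 137 bases before the start of Hmgcs1. Of all promoters, 1.24% held such a match. Both strands were searched. A match is a run of letters in this window and not a binding site shown by these data.

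Signals are given below as normalized log2 values, each probe on its own scale. A gene counts as higher or lower when limma's moderated test, adjusted by Benjamini-Hochberg over all 12300 kept probes, gave a value under 0.05. In androgenetic against fertilized cells, 6 of the 7 measured enzymes were higher and 0 lower, where 35.4% of all genes were higher and 39.3% lower (74.7% in either direction). Parthenogenetic against fertilized cells gave 2 enzymes higher and 1 lower, where 20.3% of all genes were higher and 20.3% lower (40.6% in either direction). Between androgenetic and parthenogenetic cells, 5 were higher and 1 lower in androgenetic cells, where 34.0% of all genes were higher and 37.1% lower (71.1% in either direction). The median log2 difference of the 7 enzymes was 0.53, -0.0038 and 0.46 in these 3 comparisons, against -0.051, -0.0058 and -0.029 over all 8221 genes. The comparisons share arrays, so their counts are not independent. The enzymes were chosen with earlier results of these data known, so these counts and medians describe them and do not test the pathway. Of 8 other measured enzymes of the chain, 1 was higher and 3 were lower in androgenetic against fertilized cells, with a median log2 difference of 0.011.

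Markers of cell identity also differed between the groups. Beside their counts, 35.4% of all genes were higher and 39.3% lower in androgenetic against fertilized cells. In parthenogenetic against fertilized cells 20.3% of all genes were higher and 20.3% lower. All 10 ES cell markers were measured, and all 10 fell in androgenetic cells against fertilized cells, with a summed linear signal of 32865 to 36333 in androgenetic, 118768 to 120366 in parthenogenetic and 102187 to 107220 in fertilized cells. Fgf4 was the one ES cell marker undetected on all androgenetic arrays. Of 8 trophectoderm markers 6 were measured and all 6 were higher in androgenetic than in fertilized cells, with sums of 75287 to 80492, 14666 to 15222 and 15020 to 16955 in androgenetic, parthenogenetic and fertilized cells. Of 15 embryonic fibroblast markers 4 were measured. Androgenetic against fertilized cells had 3 of them higher and 1 lower (sums 5264 to 5468 in androgenetic, 2016 to 2201 in parthenogenetic and 965 to 1201 in fertilized cells, with Col1a1 undetected in the last). Parthenogenetic against fertilized cells had 2 higher and 0 lower. Of 8 primitive endoderm markers 5 were measured, and 4 were higher in androgenetic than in fertilized cells and 4 lower in parthenogenetic than in fertilized cells. Their sums were 11507 to 12077 in androgenetic, 5279 to 5848 in parthenogenetic and 6354 to 6879 in fertilized cells, with Gata6, Pdgfra and Lamb1 undetected in parthenogenetic cells. The part of these shifts in the enzyme results was not tested. In such bulk samples fewer cells of a type and less RNA per cell cannot be told apart. Per array, 10623 to 11174 probes were detected, and median intensities ran from 127 to 167.

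**Figure D1:**
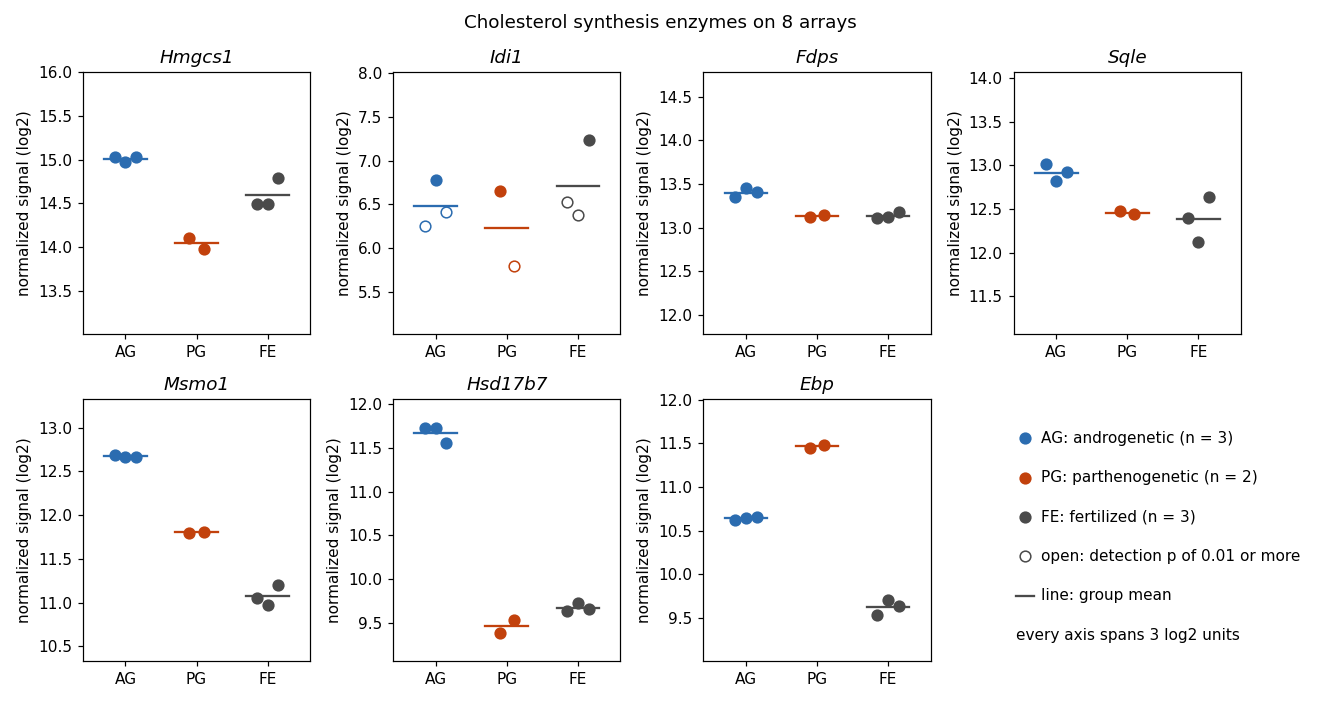
Normalized log2 signal of the 7 measured enzymes on each array, by group (androgenetic, AG; parthenogenetic, PG; fertilized, FE). Points are arrays, lines are group means, and open points had a detection p of 0.01 or more. Hsd17b7 stood at 11.55 to 11.73 on androgenetic arrays and at 9.73 or lower on every other array, whereas Ebp was highest on the parthenogenetic arrays.

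Hmgcs1 (chr13:119690351-119708260) encodes a cytosolic synthase of the early, isoprenoid-making stretch. Its log2 signals were 15.03, 14.97 and 15.03 on androgenetic arrays, 14.11 and 13.98 on parthenogenetic arrays, and 14.50, 14.49 and 14.79 on fertilized arrays. The 3 groups did not overlap, with androgenetic cells highest and parthenogenetic cells lowest. Hmgcs1 was 1.34-fold higher in androgenetic than in fertilized cells (log2 difference 0.42 ± 0.096 SE, adjusted p = 0.00364, limma). It was 1.46-fold lower in parthenogenetic than in fertilized cells (log2 difference -0.55 ± 0.11 SE, adjusted p = 0.00415, limma). The androgenetic level was 1.95-fold above the parthenogenetic one (log2 difference 0.96 ± 0.11 SE, adjusted p = 4.86e-05, limma). It was the one enzyme called lower in parthenogenetic than in fertilized cells.

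Idi1 (chr13:8885606-8892396) encodes the isomerase that interconverts the isoprenoid building blocks isopentenyl and dimethylallyl diphosphate. Its probe lay at the edge of detection and was above background on 1 array of each group. The log2 signals were 6.25, 6.78 and 6.41 on androgenetic, 6.65 and 5.80 on parthenogenetic, and 6.52, 6.38 and 7.23 on fertilized arrays. All groups overlapped. The 95% interval of the log2 difference ran from -0.86 to 0.40 for androgenetic against fertilized cells and from -1.19 to 0.22 for parthenogenetic against fertilized cells (adjusted p = 0.470 and 0.245, limma). Androgenetic and parthenogenetic cells were not separated by the test either (interval -0.45 to 0.96, adjusted p = 0.480, limma), and no fold is given for this probe.

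Fdps (chr3:89093588-89101967) encodes the synthase of farnesyl diphosphate, from which sterols, ubiquinone and prenyl groups on proteins branch. Its log2 signals were 13.35, 13.45 and 13.41 on androgenetic, 13.12 and 13.15 on parthenogenetic, and 13.11, 13.12 and 13.18 on fertilized arrays. Androgenetic arrays lay above all the others, and parthenogenetic and fertilized arrays overlapped. The difference was small but exceeded the spread between arrays. Fdps was 1.20-fold higher in androgenetic than in fertilized cells (log2 difference 0.27 ± 0.068 SE, adjusted p = 0.00659, limma). Against parthenogenetic cells it was 1.21-fold higher (log2 difference 0.27 ± 0.076 SE, adjusted p = 0.0115, limma), a call lost without parthenogenetic replicate 1 (adjusted p = 0.0668). For parthenogenetic against fertilized cells the 95% interval ran from -0.18 to 0.17 (adjusted p = 0.974, limma).

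Sqle (chr15:59315092-59331193) encodes squalene epoxidase, an oxygen-using and rate-limiting step of the sterol stretch. Its brighter probe read 13.01, 12.82 and 12.92 on androgenetic, 12.47 and 12.44 on parthenogenetic, and 12.39, 12.13 and 12.64 on fertilized arrays. The androgenetic arrays were highest, and the fertilized arrays, the most scattered, spanned both sides of the parthenogenetic ones. Sqle was 1.44-fold higher in androgenetic than in fertilized cells (log2 difference 0.53 ± 0.13 SE, adjusted p = 0.00426, limma). Against parthenogenetic cells it was 1.37-fold higher (log2 difference 0.46 ± 0.14 SE, adjusted p = 0.0165, limma). That call was lost without androgenetic replicate 1, parthenogenetic replicate 1 or parthenogenetic replicate 2, at adjusted p = 0.0536, 0.0603 and 0.0767. The dimmer Sqle probe had log2 differences of 0.61 and 0.64 in the same comparisons (adjusted p = 0.00890 and 0.0124, limma). For parthenogenetic against fertilized cells the interval of the brighter probe was -0.25 to 0.39 (adjusted p = 0.717, limma).

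Msmo1 (chr8:64718123-64733578) encodes a methylsterol oxidase that acts after Cyp51 and begins the removal of the paired methyl groups at one carbon of the sterol ring. Its log2 signals were 12.68, 12.66 and 12.67 on androgenetic, 11.80 and 11.81 on parthenogenetic, and 11.05, 10.97 and 11.21 on fertilized arrays. The groups formed 3 separate levels, in the order androgenetic, parthenogenetic, fertilized. Msmo1 was 3.02-fold higher in androgenetic than in fertilized cells (log2 difference 1.60 ± 0.079 SE, adjusted p = 2.36e-07, limma). It was 1.66-fold higher in parthenogenetic than in fertilized cells (log2 difference 0.73 ± 0.088 SE, adjusted p = 0.000344, limma). The androgenetic level stood 1.82-fold above the parthenogenetic level (log2 difference 0.87 ± 0.088 SE, adjusted p = 2.65e-05, limma).

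Hsd17b7 (chr1:169949535-169969242) encodes the ketosteroid reductase that completes each round of that methyl removal. Its log2 signals were 11.73, 11.73 and 11.55 on androgenetic, 9.39 and 9.53 on parthenogenetic, and 9.64, 9.73 and 9.66 on fertilized arrays. In the deposited values, before background correction and scaling, these were intensities of 3476 to 4273 in androgenetic, 638 to 763 in parthenogenetic and 759 to 902 in fertilized cells. Androgenetic arrays stood apart from all the others, and parthenogenetic arrays lay just below the fertilized ones. Hsd17b7 was 3.99-fold higher in androgenetic than in fertilized cells (log2 difference 2.00 ± 0.082 SE, adjusted p = 7.97e-08, limma). It ranked 263 among the increases of 8221 genes in that comparison. Against parthenogenetic cells it was 4.63-fold higher (log2 difference 2.21 ± 0.092 SE, adjusted p = 1.11e-07, limma), at rank 172. Its log2 difference between parthenogenetic and fertilized cells was -0.21 (95% interval -0.42 to -0.0047) and did not pass after adjustment (adjusted p = 0.0962, limma).

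Ebp (chrX:8185329-8193512) encodes the sterol isomerase that moves the ring double bond, and it is the only X-linked gene among the 8. Its log2 signals were 10.62, 10.65 and 10.66 on androgenetic, 11.45 and 11.48 on parthenogenetic, and 9.53, 9.70 and 9.63 on fertilized arrays. The groups did not overlap, and their order differed from that of the other enzymes, with parthenogenetic cells on top. Ebp was 3.58-fold higher in parthenogenetic than in fertilized cells (log2 difference 1.84 ± 0.081 SE, adjusted p = 2.25e-06, limma), which ranked 41 among the increases of all genes. It was 2.03-fold higher in androgenetic than in fertilized cells (log2 difference 1.02 ± 0.072 SE, adjusted p = 2.19e-06, limma). In androgenetic against parthenogenetic cells it was 1.77-fold lower (log2 difference -0.82 ± 0.081 SE, adjusted p = 2.14e-05, limma), the only enzyme called lower there.

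X-linked genes moved with the parthenogenetic comparison. Over 278 X-linked genes, the median log2 difference between parthenogenetic and fertilized cells was 0.62 (quartiles 0.31 and 0.88), against -0.019 for 7940 other genes. Ebp at 1.84 was the 9th highest of the 278. In androgenetic against fertilized cells the X-linked median was 0.049, and Ebp at 1.02 was the 50th highest. For androgenetic against parthenogenetic cells the X-linked median was -0.48, and Ebp at -0.82 ranked 182 from the highest. The part of X dosage in the Ebp result was not tested.

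**Figure D2:**
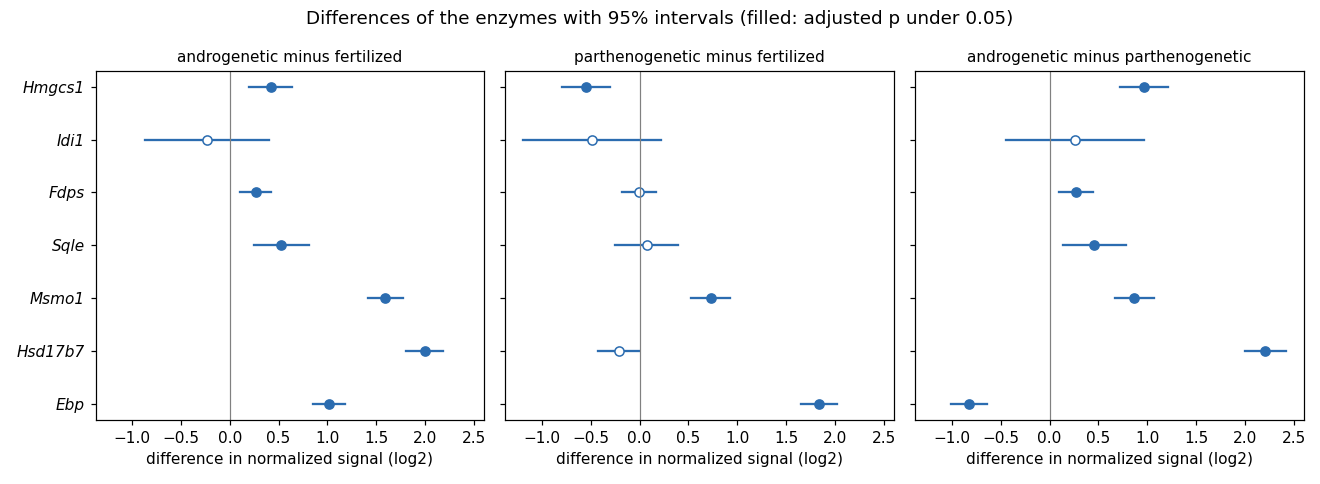
Log2 differences of the 7 enzymes in the 3 comparisons, with 95% intervals. Filled points passed an adjusted p of 0.05. Hsd17b7 had the largest difference in both comparisons of androgenetic cells, at 2.00 and 2.21, and Ebp in the comparison of parthenogenetic with fertilized cells, at 1.84. Idi1 was above background on 1 array of each group, so its points are uncertain.

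Spread within groups differed among the enzymes. The pooled SD of the brightest probe within groups was 0.042 for Fdps, 0.057 for Ebp, 0.076 for Msmo1, 0.084 for Hsd17b7, 0.12 for Hmgcs1, 0.17 for Sqle and 0.43 for Idi1 (log2). The distance between the highest and lowest group mean was 2.21 for Hsd17b7, 1.84 for Ebp and 1.60 for Msmo1, and 0.96 or less for the other 4. Among the fertilized arrays, replicate 3 was highest for Hmgcs1, Idi1, Fdps, Sqle and Msmo1, and replicate 2 for Hsd17b7 and Ebp.

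Of 13 other enzymes of the chain, 8 had a kept probe. In androgenetic against fertilized cells 1 was higher, 3 were lower and 4 did not pass, where 35.4% of all genes were higher and 39.3% lower. The median log2 difference was 0.011. The one that rose was Nsdhl, the X-linked dehydrogenase that works between Msmo1 and Hsd17b7 in methyl removal. Its brightest probe read 10.18, 10.26 and 10.25 on androgenetic, 9.91 and 10.01 on parthenogenetic, and 9.38, 9.17 and 9.33 on fertilized arrays. Nsdhl was 1.91-fold higher in androgenetic than in fertilized cells (log2 difference 0.93 ± 0.080 SE, adjusted p = 7.79e-06, limma). It was also 1.58-fold higher in parthenogenetic than in fertilized cells (log2 difference 0.66 ± 0.090 SE, adjusted p = 0.000610, limma), which ranked 123 among 278 X-linked genes with a median of 0.62.

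Dhcr7, Lbr and Mvd fell in androgenetic cells against fertilized cells. Dhcr7, which reduces the last double bond on one route to cholesterol, was 1.60-fold lower (log2 difference -0.68 ± 0.089 SE, adjusted p = 0.000118, limma). Lbr, a nuclear envelope protein that also acts as a sterol reductase, was 1.31-fold lower (log2 difference -0.39 ± 0.091 SE, adjusted p = 0.00417, limma). The call of Mvd, which makes isopentenyl diphosphate, was lost without androgenetic replicate 1 or 2 (adjusted p = 0.0546 and 0.0829). Cyp51, the lanosterol demethylase that acts before Msmo1, had a log2 difference of 0.33 (95% interval 0.016 to 0.64, adjusted p = 0.0553, limma). It passed under 6 of 17 other settings, among them the authors' values (adjusted p = 0.038) and the fit without fertilized replicate 3 (0.0148), and leaving out 1 array gave 0.17 to 0.44.

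In parthenogenetic against fertilized cells 1 of these 8 enzymes was higher (Nsdhl), 1 was lower and 6 did not pass, where 20.3% of all genes were called in each direction. The one lower was Tm7sf2, a sterol reductase like Lbr, which was not above background on either parthenogenetic array and was at least 1.28-fold lower (adjusted p = 0.00161, limma; mean log2 signals 6.13 and 6.98). In androgenetic against parthenogenetic cells 3 were higher and 2 lower, where 34.0% of all genes were higher and 37.1% lower. Tm7sf2 was at least 1.22-fold higher there (adjusted p = 0.000897, limma, mean log2 signals 6.91 and 6.13). Cyp51 was 1.57-fold higher there (log2 difference 0.65 ± 0.15 SE, adjusted p = 0.00438, limma) and Dhcr7 1.74-fold lower (log2 difference -0.80 ± 0.10 SE, adjusted p = 9.90e-05, limma). Nsdhl had a log2 difference of 0.27 by its brightest probe in androgenetic against parthenogenetic cells (adjusted p = 0.0247, limma). Its other probes had 0.41, 0.36 and 0.24 (adjusted p = 0.00451, 0.00573 and 0.163, limma). Lbr was 1.24-fold lower in androgenetic than in parthenogenetic cells (log2 difference -0.31 ± 0.10 SE, adjusted p = 0.0231, limma). The calls of the brightest Nsdhl probe and of Lbr were each lost in several fits. Nsdhl lost it with the replicate block (adjusted p = 0.0737) and without androgenetic replicate 2 or 3 or parthenogenetic replicate 1 (0.0735, 0.0671 and 0.147). Lbr lost it without androgenetic replicate 2 or 3 or parthenogenetic replicate 1 or 2 (0.057, 0.065, 0.0727 and 0.104).

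**Figure D3:**
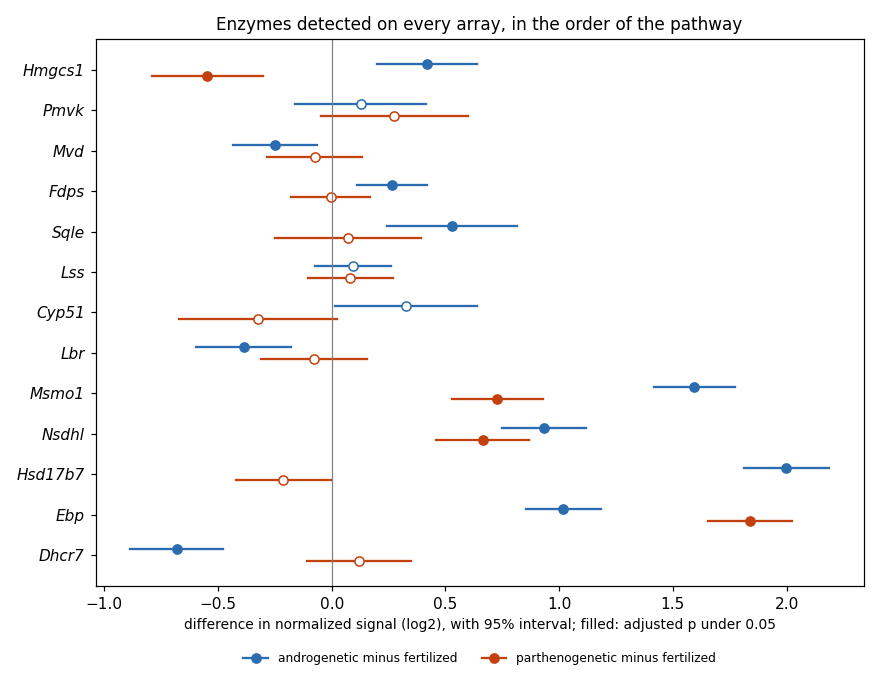
Log2 differences with 95% intervals for 13 enzymes, from the first reaction at the top to the last at the bottom, for androgenetic minus fertilized and parthenogenetic minus fertilized cells. Filled points passed an adjusted p of 0.05. Idi1 and Tm7sf2, which were not above background on every array, are left out. In androgenetic minus fertilized cells the widest positive differences shown were those of Msmo1, Nsdhl, Hsd17b7 and Ebp, and the last enzyme, Dhcr7, stood at -0.68; in parthenogenetic minus fertilized cells Hsd17b7 stood at -0.21.

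Among 10 regulators of sterol sensing, 7 had a kept probe. Against fertilized cells, androgenetic cells had 3 higher and 1 lower, and 3 did not pass, where 74.7% of all genes were called in either direction. Scap, the SREBP escort, read 9.21, 9.15 and 9.17 on androgenetic, 8.43 and 8.35 on parthenogenetic, and 7.95, 8.19 and 8.22 on fertilized arrays, without overlap. It was 2.08-fold higher in androgenetic than in fertilized cells (log2 difference 1.06 ± 0.088 SE, adjusted p = 6.12e-06, limma). Srebf1, which encodes SREBP1, was not above background on any fertilized array and was at least 1.20-fold higher in androgenetic cells (adjusted p = 0.00406, limma; mean log2 signals 6.96 and 5.77). Srebf2, which encodes SREBP2, had a log2 difference of 0.045 (adjusted p = 0.654, limma).

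Insig1, a retention factor for Scap and itself an SREBP target, was the regulator called lower by its brightest probe. Its brightest probe read 8.88, 8.95 and 8.96 on androgenetic, 9.56 and 9.70 on parthenogenetic, and 10.57, 10.21 and 10.70 on fertilized arrays. The 3 groups did not overlap. Insig1 was 2.96-fold lower in androgenetic than in fertilized cells (log2 difference -1.56 ± 0.12 SE, adjusted p = 4.15e-06, limma). In parthenogenetic against fertilized cells it was 1.82-fold lower (log2 difference -0.87 ± 0.14 SE, adjusted p = 0.00134, limma). Its 3 probes disagreed in size, and in parthenogenetic against fertilized cells also in direction. One of them had a log2 difference of -0.52 for androgenetic against fertilized cells and 0.056 for parthenogenetic against fertilized cells (adjusted p = 0.00162 and 0.729, limma). The paralog Insig2 went the other way in androgenetic cells, with a log2 difference of 0.41 ± 0.085 (SE, adjusted p = 0.00222, limma). Mbtps1, a protease of SREBP, did not pass by its brightest probe in androgenetic against fertilized cells (log2 difference -0.18, adjusted p = 0.116, limma). Its dimmer probes had -0.34 and -0.19 (adjusted p = 0.0151 and 0.0622, limma), and the mean of its probes had -0.24 (adjusted p = 0.0301, limma).

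Parthenogenetic cells had 2 of the 7 regulators higher and 2 lower than fertilized cells, where 20.3% of all genes were called in each direction. Mbtps1, the protease that first cuts SREBP, was 1.33-fold higher (log2 difference 0.41 ± 0.10 SE, adjusted p = 0.0132, limma), and Srebf2 1.25-fold higher (log2 difference 0.32 ± 0.098 SE, adjusted p = 0.0302, limma). Both calls were lost without parthenogenetic replicate 2 (adjusted p = 0.116 and 0.15), and that of Srebf2 also without parthenogenetic replicate 1 (0.0931) or androgenetic replicate 1 (0.0527). The call of Srebf2 was further lost with the replicate block (0.0895) and with only the 2 groups compared in the fit (0.0873). Insig2 was 1.40-fold lower (log2 difference -0.49 ± 0.095 SE, adjusted p = 0.00406, limma), although its dimmer probe had a log2 difference of -0.00091 (adjusted p = 0.996, limma).

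Of 15 genes of sterol uptake, storage and efflux, 3 had a kept probe. Stard4, a sterol transport protein and SREBP2 target, read 10.49, 10.29 and 10.39 on androgenetic, 9.42 and 9.30 on parthenogenetic, and 10.05, 9.86 and 10.01 on fertilized arrays. That is the same order of groups as Hmgcs1. Stard4 was 1.34-fold higher in androgenetic than in fertilized cells and 1.53-fold lower in parthenogenetic than in fertilized cells (log2 differences 0.42 ± 0.087 and -0.61 ± 0.097 SE, adjusted p = 0.00205 and 0.00142, limma). Npc2, which releases cholesterol from lysosomes, followed the same order, with log2 differences of 0.79 and -0.38 (adjusted p = 0.000101 and 0.0277, limma). The second of these calls was lost without parthenogenetic replicate 1 or 2 (0.112 and 0.114), with the replicate block (0.0525) and with only the 2 groups compared in the fit (0.0782). Apoe, a lipid carrier, was 4.50-fold lower in androgenetic and 1.60-fold lower in parthenogenetic than in fertilized cells (log2 differences -2.17 and -0.67, adjusted p = 3.56e-08 and 0.000441, limma).

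Of 11 genes of fatty acid synthesis, which SREBP1 is known to drive, 10 had a kept probe. In androgenetic against fertilized cells 4 were higher and 3 lower, shares near those of all genes (35.4% and 39.3%). The desaturases Scd2 and Scd1 were 3.73-fold and 2.37-fold higher (log2 differences 1.90 ± 0.11 and 1.25 ± 0.085 SE, adjusted p = 5.44e-07 and 1.75e-06, limma). Acss2, which makes acetyl-CoA from acetate, was 1.94-fold lower and the elongase Elovl6 1.60-fold lower (adjusted p = 2.35e-06 and 2.61e-05, limma). In parthenogenetic against fertilized cells 3 were higher and 0 lower, led by Me1, a source of NADPH, at 2.08-fold (log2 difference 1.06 ± 0.14 SE, adjusted p = 0.000453, limma), where 20.3% of all genes were higher. The dimmer Me1 probe had a log2 difference of 0.35 and did not pass (adjusted p = 0.0815, limma). Scd1 was 1.43-fold higher in parthenogenetic than in fertilized cells (log2 difference 0.52 ± 0.095 SE, adjusted p = 0.00289, limma). The call of Scd2, another of the 3 (log2 difference 0.36, adjusted p = 0.045, limma), was lost in 9 of 17 other settings, among them the replicate block (0.0831) and the fits without parthenogenetic replicate 1 or 2 (0.0978 and 0.215), androgenetic replicate 1 or 2 (0.0646 and 0.0521) or fertilized replicate 1 or 3 (0.116 and 0.0701).

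Of 12 genes of the isoprenoid branch, which uses farnesyl and geranylgeranyl diphosphate to modify proteins, 8 had a kept probe. Androgenetic cells had 2 higher and 4 lower than fertilized cells, where 35.4% of all genes were higher and 39.3% lower. Zmpste24, a protease that trims prenylated proteins, was 2.45-fold higher (log2 difference 1.29 ± 0.095 SE, adjusted p = 2.88e-06, limma), and Rabggta, a subunit of the Rab geranylgeranyl transferase, 2.07-fold lower (log2 difference -1.05 ± 0.14 SE, adjusted p = 0.000109, limma). Parthenogenetic cells had 2 higher, Fntb and Zmpste24, and 0 lower than fertilized cells, where 20.3% of all genes were higher. Both calls were lost with only the 2 groups compared in the fit (adjusted p = 0.0589 and 0.082, limma). They were also lost without parthenogenetic replicate 1 (log2 differences 0.35 and 0.36) or 2 (0.34 and 0.36). The probes of Zmpste24 disagreed in this comparison. A dimmer probe had a log2 difference of 0.72 (adjusted p = 0.000176, limma), whereas the dimmest had 0.16 and did not pass (adjusted p = 0.397, limma).

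**Figure D4:**
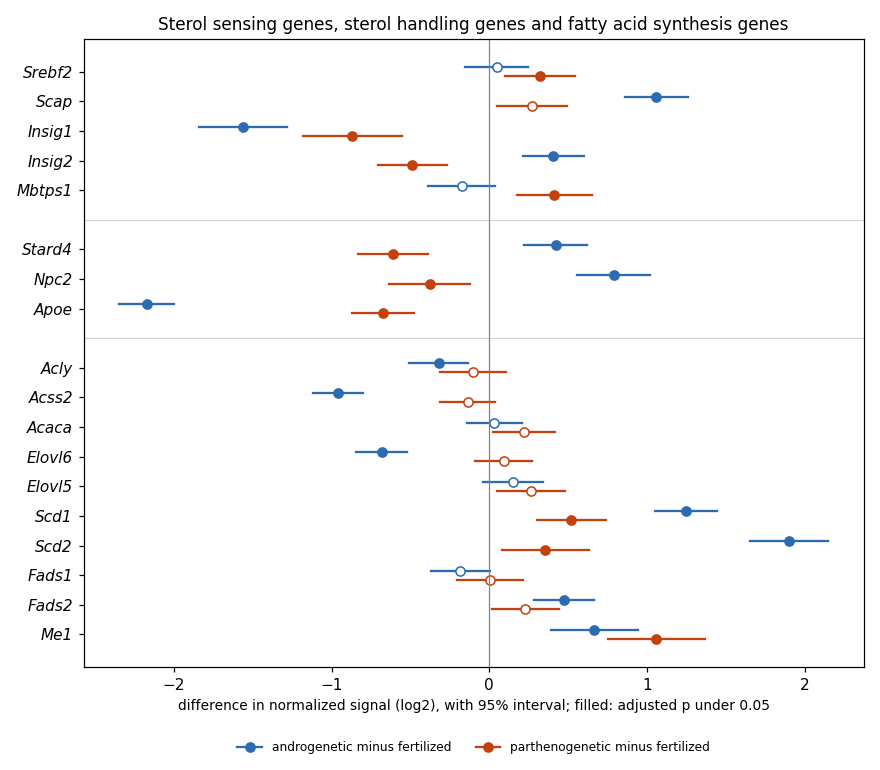
Log2 differences with 95% intervals for sterol sensing genes (top), sterol handling genes (middle) and fatty acid synthesis genes (bottom), for androgenetic minus fertilized and parthenogenetic minus fertilized cells. Srebf1 and Mbtps2, which were not above background on every array, are left out. Filled points passed an adjusted p of 0.05, with Insig1 at -1.56 and Scap at 1.06 in androgenetic cells.

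Other genes were ranked by likeness to each enzyme, as the root mean square difference of mean-centred log2 values over the 8 arrays, among 6596 other genes detected on all 8. The nearest to Hsd17b7 were Tmem150a (0.051) and Ctsc (0.088), and the nearest to Msmo1 were Emp1 (0.094) and Tspan2 (0.10). For Ebp they were Wdr46 and Map2 (both 0.11), and for Hmgcs1 Nectin2 (0.056) and Acvr1 (0.064). Idi1 was left out because its probe was dim. For Sqle they were Nfatc3 (0.068) and Cdc27 (0.070), and for Fdps Tbk1 and Hsd17b4 (both 0.045). No other gene of the chain was among them. The points share 3 groups of arrays, so likeness here mostly reflects the group means, and it is a description only.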

How the data were processed

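RNA was measured on 8 single-colour Illumina arrays, 1 per sample, and groups came from the labels. Per the labels' protocols, RNA was extracted with the mirVana kit and biotin-labelled with the TotalPrep kit. The submitters' processing notes name BeadStudio 3.1.3. The authors deposited non-normalized intensity values, each with a detection p-value per the file headers. They also deposited log2 values for 12891 probes, which quantile normalization of log2 intensity (detection p under 0.05 on at least 4 arrays) matched to within 0.000742.

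Intensities were corrected and quantile normalized with neqc (limma 3.58.1, R 4.3.3, offset 16, background from detection p-values). On at least 2 arrays a detection p below 0.01 was required, and probes meeting this were retained, 12300 in all, of which 11262 carried 1 gene name. Names come from the array's annotation, which covers the authors' 12891 probes only, updated by gene ID to RefSeq (GRCm38.p6). The brightest probe stands for a gene. The offset compresses differences of dim genes.

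The 3 group means were estimated together from the 8 arrays in limma (residual degrees of freedom 5, prior 3.51), with two-sided moderated tests (lmFit, eBayes) and Benjamini-Hochberg adjustment. A probe undetected on all arrays of 1 group has a lower bound, against the lowest detected signal of those arrays. The fit was tested on simulated data. The enzymes and gene lists were chosen with earlier results of these data known. For regulators, sterol handling, fatty acid synthesis and the isoprenoid branch, androgenetic against parthenogenetic cells were not described gene by gene. By rule, up to 4 genes of a list were named with values in a comparison, the 2 largest increases and 2 largest decreases past the threshold. Outside it, Cyp51, Srebf2, Insig2, Mbtps1, Nsdhl, Lbr, Mvd and Scd2 are also given in some comparisons, as chosen after their values were seen. Alternatives covered background, offset, filter, probe choice, samples fitted, eBayes trend, a replicate block and leaving out each array. The number of arrays limits the precision.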

Additional observations from a re-analysis of the deposited data

How the results depend on the processing

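Over 17 alternative settings, 344 of 354 log2 differences of the 7 enzymes kept their direction and their side of the threshold. The 4 lost calls were those of Sqle and Fdps in androgenetic against parthenogenetic cells when 1 array was left out, and the 6 changes of sign were in differences that had not passed. For 27 other pathway genes, 1279 of 1368 differences were kept in this way, 59 calls were lost, 18 were gained and 12 signs changed. These 27 were the measured other enzymes and the genes that the naming rule took from the other lists in any comparison. The latter entered through the largest changes past the threshold, so these numbers do not describe all measured pathway genes. The number of enzymes higher in androgenetic than in parthenogenetic cells was 3 to 5 over the fits that left out 1 array, the lowest without parthenogenetic replicate 1. The median difference of the enzymes moved to 0.77 for androgenetic against fertilized and 0.66 for androgenetic against parthenogenetic cells over probes detected on all 8 arrays, which leaves out Idi1. With the mean of all probes of a gene the second of these was 0.55. Leaving out 1 array gave medians of 0.40 to 0.66 and 0.41 to 0.68. The counts that follow cover all measured genes of the other lists: 8 enzymes, 7 regulators, 3 sterol handling, 10 fatty acid and 8 isoprenoid genes. Of all genes, 40.6% were called in parthenogenetic against fertilized cells and 71.1% in androgenetic against parthenogenetic cells. The other pathway genes past the threshold in parthenogenetic against fertilized cells numbered 14, 9 with only the 2 groups compared in the fit, and 8 to 18 with 1 array left out. In androgenetic against parthenogenetic cells they numbered 27, and 18 to 29 with 1 array left out. The cause was not tested.

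Changes of sign with 1 array left out were seen in parthenogenetic against fertilized cells for Fdps (-0.019 to 0.017), Sqle (-0.058 to 0.20), Lbr (-0.13 to 0.016), Rabggta (-0.10 to 0.15) and Rce1 (-0.032 to 0.051). In androgenetic against fertilized cells they were seen for Idi1 (-0.40 to 0.030), Mbtps2 (-0.54 to 0.051) and Srebf2 (-0.033 to 0.089), and in androgenetic against parthenogenetic cells for Idi1 (-0.17 to 0.68) and Lss (-0.036 to 0.059). Rabggta was at -0.13 with the mean of its probes in parthenogenetic against fertilized cells, and Tm7sf2 at 0.011 with the authors' values in androgenetic against fertilized cells. Same-numbered arrays of different groups had residual correlations of -0.090 to 0.067, so the numbers were not taken to pair them. With the replicate block, 6, 2 and 5 enzymes were higher in the 3 comparisons in the order of the report, as without it, and Fdps stood at 0.0075 in parthenogenetic against fertilized cells.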
